A study of Mus musculus with 10 samples.

Results

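Read depth along the autosomes was compared between male mESC cultures kept in Keniry2022 conditions and cultures kept in Mulas2019 conditions, both at passage 20 (p20). The members of the comparison are 4 of the 10 libraries of the series, with 2 in each group, chosen by the passage and protocol in their titles. Low-coverage whole-genome DNA sequencing had been performed, and reads were summed in bins of 1 Mb, of which 2391 of the 2473 on chromosomes 1 to 19 held enough reads to be tested.

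All 4 libraries came from male C57/Bl6 mESCs, which are pluripotent cells derived from the early embryo. Every culture was in 2i/LIF, a medium in which a pair of kinase inhibitors and the cytokine LIF hold the cells in a naive state. Per the methods, independent lines were derived with the study's own culture method, and each was split into both protocols at the start. Keniry2022 cells were passaged daily at higher density, in suspension and in more medium, while Mulas2019 cells grew attached to gelatin at lower density and were passaged less often. At an equal passage number the cultures had therefore spent different times in culture, so that protocol and days in culture cannot be told apart. The batches in which libraries were prepared are not given in the sources used here.

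mESC cultures are known to gain whole chromosomes over time, because cells with an extra copy can outgrow the others. Sequencing depth reads such gains as a rise of the share of reads on a chromosome. Depth from short reads also varies with base composition. Mammalian autosomes alternate between GC-rich stretches that are dense in genes and replicate early, and AT-rich stretches that hold few genes and replicate late. GC content, the percentage of G and C bases, is given below for each bin beside its difference.

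The libraries held 32707364 and 33003961 reads in Keniry2022 conditions and 35106917 and 28600192 reads in Mulas2019 conditions, in the order of their replicate labels. The median bin held 12111 to 14853 reads, so that counting alone leaves an error of 0.821% to 0.909%. Values are reads per 1000000 autosomal reads (CPM). Differences are log2 fold changes (log2FC), the mean log2 CPM of the 2 Keniry2022 libraries minus that of the 2 Mulas2019 libraries, and bins were tested with limma and Benjamini-Hochberg adjustment at 0.05.

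Before the results, the replicate labels needed a check, because each number should mark 1 cell line. Reads on chromosome Y made up 0.0441% and 0.000673% of all reads in the Keniry2022 libraries labelled replicate 1 and replicate 2, and 0.000356% and 0.0377% in Mulas2019 replicates 1 and 2. At passage 10 (p10) replicate 2 was the library with Y reads in both protocols, with 0.0570% in Keniry2022 and 0.0594% in Mulas2019. The Keniry2022 labels at p20 thus ran opposite to the other 3 groups, and the replicate 1 libraries of those groups held hardly any Y reads. The lines are labelled male, and a loss of chromosome Y during derivation, before the split, is described for one of them.

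Autosomal windows told the same libraries apart. Among 47260 windows of 50 kb, 5 differed by more than 0.4 (log2) between the lines at p20 when the Keniry2022 labels were exchanged, and 0 did with the labels as given. With the labels as given the largest contrast was -0.397, close to that cut (chr17:6950001-7000000). The 5 windows were picked for the contrast with exchanged labels, so their values are a description. Those on chromosome 14 adjoin and form 1 region. In chr14:43250001-43400000, which holds Gm8126, Gm9732, Gm8127 and 1700001F09Rik, p20 Keniry2022 had 11.8 and 20.9 CPM while p20 Mulas2019 had 20.9 and 12.3 CPM. At p10 the same stretch had 20.7 and 14.1 CPM in Keniry2022 and 20.3 and 13.5 CPM in Mulas2019. In chr13:119550001-119600000, which holds Tmem267, the p20 values were 3.79 and 5.46 CPM in Keniry2022 and 5.34 and 3.30 CPM in Mulas2019. In chr9:38100001-38150000, which holds the olfactory receptor genes Olfr888, Olfr889 and Olfr890, they were 11.1 and 15.4 CPM against 15.4 and 11.0 CPM, and at p10 replicate 1 was the higher within each protocol, with 14.7 and 12.3 CPM in Keniry2022 and 18.6 and 16.1 CPM in Mulas2019. The groups were therefore compared by their means, and the p20 Keniry2022 libraries are called by their labels.

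**Figure D1:**
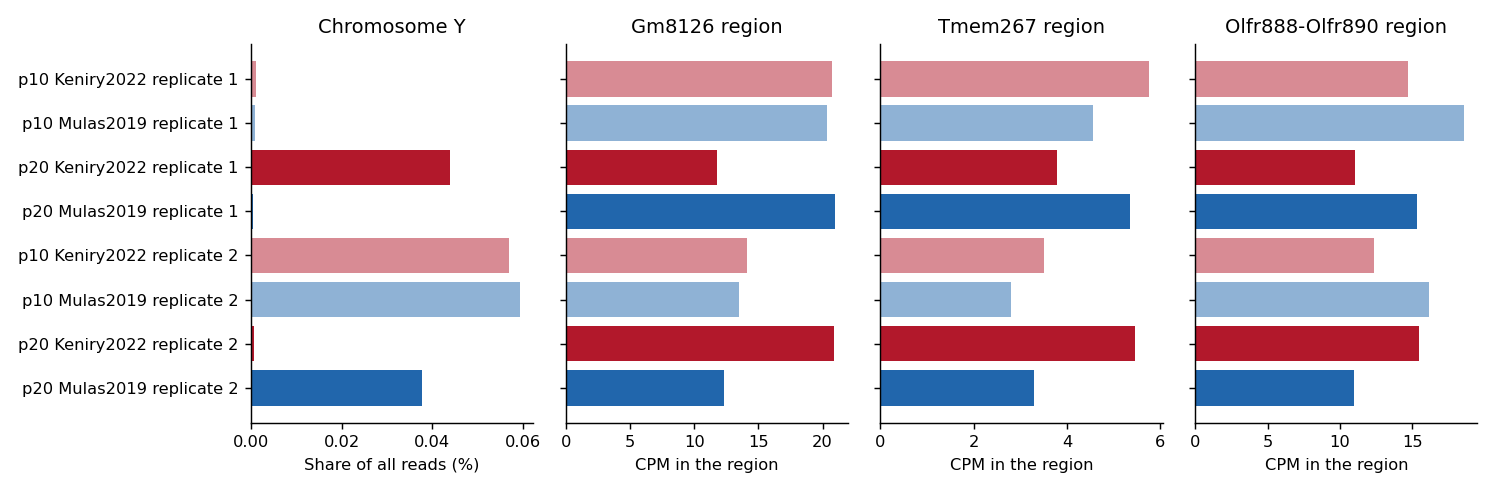
Share of all reads on chromosome Y (%) and CPM in the 3 autosomal regions in the 8 libraries at p10 and p20, with Keniry2022 in red, Mulas2019 in blue and p10 in the paler shade; each bar is 1 library. The library labelled p20 Keniry2022 replicate 1 has 0.0441% Y reads and 11.8 CPM in the Gm8126 region, next to the replicate 2 libraries of the other groups.

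The comparison asked which stretches of the autosomes differed in depth between the protocols at p20. GC-rich, gene-dense bins were higher in Keniry2022 and AT-rich, gene-poor bins were lower. Of the 2391 bins, 1450 (60.6%) differed, with 613 higher (25.6%) and 837 lower (35.0%) in Keniry2022. The median log2FC over all bins was -0.01, with 5% of bins below -0.14 and 5% above 0.12. A copy gained on a diploid chromosome in every cell corresponds to a log2FC of 0.58.

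The differences were small. Bins whose 2 libraries of one protocol lay wholly above those of the other numbered 906 with Keniry2022 higher (37.9%) and 1100 with Keniry2022 lower (46.0%), while 385 overlapped. When differences had to exceed a fold of 1.1 (limma TREAT), no bin was called (0), and 7 bins reached an unadjusted p under 0.05. By size alone, 238 bins (9.95%) lay beyond that fold, 79 higher and 159 lower. The count of bins that differed was lower in refits without 1 Keniry2022 library. Such refits leave 1 library in that group, so the fall cannot show whether the difference itself rested on either library. With each library centred on the median of its bins instead of its autosomal total, 771 bins were higher and 679 lower, so that the higher bins made up 53.2% of calls and not 42.3%.

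The bins named by rule were the 6 of largest gain and the 6 of largest loss among those that passed with groups apart. At most 2 bins per chromosome were taken in each direction. A stretch of reference sequence from 3 of each is shown, because the bins differ in base composition. G and C are in capitals. The sequences are the plus strand of the GRCm38 (mm10) assembly from RefSeq, 150 bases each, taken outside exons and repeats where GC content was nearest to that of the bin. Of the higher bins, the stretch from chromosome 7 lies between genes (chr7:145330901-145331050), that from chromosome 17 in an intron of Narfl (chr17:25778251-25778400) and that from chromosome 10 in an intron of Ap3d1 (chr10:80712251-80712400). Of the lower bins, the stretch from chromosome 3 lies between genes (chr3:91581351-91581500), as does that from chromosome 7 (chr7:87136151-87136300), while that from chromosome 4 lies in an intron of Skint5 (chr4:113771501-113771650).
Higher, chromosome 7: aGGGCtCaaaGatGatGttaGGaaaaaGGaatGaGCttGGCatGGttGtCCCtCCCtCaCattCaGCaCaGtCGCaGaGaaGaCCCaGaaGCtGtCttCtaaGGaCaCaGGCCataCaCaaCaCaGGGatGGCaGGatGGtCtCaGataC
Higher, chromosome 17: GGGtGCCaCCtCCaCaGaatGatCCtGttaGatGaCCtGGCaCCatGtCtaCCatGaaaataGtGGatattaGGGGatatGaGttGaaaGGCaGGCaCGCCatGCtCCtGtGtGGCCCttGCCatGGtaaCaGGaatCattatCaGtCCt
Higher, chromosome 10: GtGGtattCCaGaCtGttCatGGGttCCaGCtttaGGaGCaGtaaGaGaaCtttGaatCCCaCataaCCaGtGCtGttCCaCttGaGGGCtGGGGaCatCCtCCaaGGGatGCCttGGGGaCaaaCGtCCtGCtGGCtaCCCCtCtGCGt
Lower, chromosome 3: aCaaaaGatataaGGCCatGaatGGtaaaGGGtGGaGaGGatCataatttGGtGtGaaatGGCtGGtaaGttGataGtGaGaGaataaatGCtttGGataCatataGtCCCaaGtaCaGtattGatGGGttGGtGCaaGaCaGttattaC
Lower, chromosome 4: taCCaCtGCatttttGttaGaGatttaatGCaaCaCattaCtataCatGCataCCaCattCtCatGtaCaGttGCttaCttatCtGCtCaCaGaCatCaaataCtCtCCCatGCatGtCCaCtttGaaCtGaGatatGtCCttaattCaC
Lower, chromosome 7: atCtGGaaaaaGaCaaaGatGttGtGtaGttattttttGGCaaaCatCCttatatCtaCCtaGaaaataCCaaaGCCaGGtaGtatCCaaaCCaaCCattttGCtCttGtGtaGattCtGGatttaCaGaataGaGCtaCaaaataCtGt
The higher stretches hold 75, 74 and 80 G or C bases of 150, and the lower ones 57, 55 and 51.

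The bin of largest gain was the partial one at the end of chromosome 7, chr7:145000001-145441459, with a GC content of 50.0% and 4 protein-coding genes. Its longest genes were Tpcn2, which encodes a cation channel of lysosomes, and Mrgprd, a receptor of sensory neurons. It had 217 and 216 CPM in Keniry2022 and 190 and 180 CPM in Mulas2019, so that both Keniry2022 libraries lay above both Mulas2019 libraries. Its log2FC was 0.23 (SE 0.029, n = 2 per group, limma adjusted p 0.00627). Of the 6 gains it kept most after the GC correction described below, 0.08.

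The other 5 gains lay in GC-rich bins on chromosomes 17, 10, 8 and 4, with GC contents of 51.2% to 53.7% and log2FC of 0.19 to 0.20. The bin chr17:25000001-26000000 holds 51 protein-coding genes, among them Lmf1, needed for lipase maturation, and Ift140, a transport protein of cilia. It had 630 and 630 CPM in Keniry2022 against 564 and 533 CPM in Mulas2019. The bin chr10:80000001-81000000, with 55 protein-coding genes, among them Sbno2 and the histone methyltransferase gene Dot1l, had 625 and 612 CPM against 561 and 519 CPM. On chromosome 8 the neighbouring bins chr8:120000001-121000000 and chr8:121000001-122000000 held Gse1 and Gm27021, and Jph3 and Zcchc14, respectively. The bin on chromosome 4 from 140000001 to 141000000 held Igsf21 and Arhgef10l. In all 6 gains the Keniry2022 libraries differed from each other by less than either differed from Mulas2019.

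Among the named losses, 2 were on chromosome 3, the most that the rule allowed. The chromosome 3 bin of Naaladl2 also passed, at -0.19, and was left out by that cap. The bin chr3:91000001-92000000, in which 9130204L05Rik is the only protein-coding gene, had 284 and 259 CPM in Keniry2022 and 298 and 331 CPM in Mulas2019 (log2FC -0.21, SE 0.063, limma adjusted p 0.0293). The bin chr3:81000001-82000000, with the growth factor gene Pdgfc and the protease gene Ctso, had 370 and 343 CPM against 386 and 436 CPM (log2FC -0.20). In both, the spread within a protocol was wide, with labelled replicate 1 of Keniry2022 close to replicate 1 of Mulas2019. Without Mulas2019 replicate 2 their log2FC was -0.13 and -0.12.

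The other 4 losses lay in AT-rich bins with GC contents of 36.6% to 37.1% and 0 to 4 protein-coding genes. The bin chr4:113000001-114000000, which holds Skint5, a gene of a family expressed in skin and thymus, had 215 and 218 CPM in Keniry2022 and 245 and 257 CPM in Mulas2019 (log2FC -0.21, SE 0.028, limma adjusted p 0.00627). The bin chr7:87000001-88000000 holds the oxidase gene Nox4 and Tyr, the enzyme of the first step of melanin synthesis, and had 253 and 260 CPM against 288 and 293 CPM (log2FC -0.18). The bins chr8:38000001-39000000 and chr8:100000001-101000000 had log2FC of -0.17 and -0.17, and no protein-coding gene lies wholly inside either.

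Of the 12 named bins, 4 passed in every refit without 1 library, namely the chromosome 7 gain and 3 losses, on chromosomes 7 and 8.

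One bin with a larger difference did not pass. For the bin of chromosome 2 from 98000001 to 99000000 the difference was -0.46. Both Keniry2022 libraries, at 11.33 and 11.07 log2 CPM, lay below both Mulas2019 libraries, at 11.62 and 11.69. Its SE in limma was 2.43, against a median of 0.017 over all bins. With that SE the test could not decide whether the bin differed (limma adjusted p 0.878). After the GC correction its difference was -0.32 with an SE of 0.28, and it did not pass either. Of its reads, 89.7% to 92.6% came from 1 window of 10 kb, chr2:98660001-98670000. That window held 0.235% and 0.193% of autosomal reads in Keniry2022 and 0.292% and 0.306% in Mulas2019. It was chosen after its values were seen.

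Bins ordered by GC content showed the pattern most plainly. In the quintile of bins with the lowest GC content, 35.7% to 38.5%, 448 of 479 bins were lower in Keniry2022 and 0 were higher, and the median log2FC was -0.13. In the quintile with the highest GC content, 45.0% to 53.7%, 437 of 478 bins were higher and 0 were lower, and the median log2FC was 0.10. The quintiles between them had medians of -0.07, -0.01 and 0.04. In the lowest quintile the median bin held 269 and 271 CPM in Keniry2022 and 293 and 297 CPM in Mulas2019. In the highest quintile it held 557 and 556 CPM against 527 and 514 CPM. Without the library labelled Keniry2022 replicate 1, 254 bins of the lowest quintile and 8 of the highest passed, and without labelled replicate 2 these counts were 396 and 33.

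Depth rose with GC content in all 4 libraries, and more steeply in Keniry2022. The slope of log2 CPM per percent GC was 0.101 and 0.0997 in Keniry2022 and 0.0806 and 0.0743 in Mulas2019. The group means were 0.1005 ± 0.00112 and 0.0774 ± 0.00447 (SD, n = 2), and their difference of 0.0231 exceeded the gap between the libraries of either protocol. With 2 libraries against 2, an exact permutation test cannot go below a two-sided p of 0.33, so it was not run. No other test of the slope was made. Leaving out 1 library gave differences of 0.0199 to 0.0262. A preparation or sequencing batch that moved with the protocol was not tested, since none is given.

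**Figure D2:**
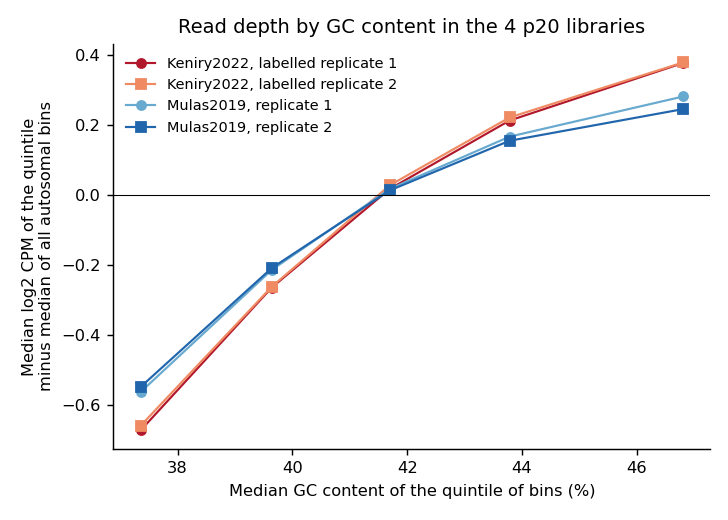
Median log2 CPM of the bins in each quintile of GC content minus the median of all autosomal bins, against the median GC content of the quintile (%), with 1 line per library. The Keniry2022 lines are steeper than both Mulas2019 lines, with slopes over all bins of 0.101 and 0.0997 against 0.0806 and 0.0743 per percent GC.

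Over the 2391 bins the log2FC and GC content had a Pearson correlation of 0.95. Bins of a library share its depth and composition trend and are not independent, so no p is given. A smooth curve of log2 CPM on GC content, fitted and subtracted in each library, removed 90.7% of the variance of the log2FC over bins. The SD of the log2FC over bins was 0.086 before and 0.026 after this GC correction. The spread of log2 CPM over bins within a library was 0.446 and 0.437 in Keniry2022 against 0.384 and 0.376 in Mulas2019, and after the correction it was 0.245, 0.238, 0.241 and 0.252, where the groups overlap.

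The trend was present at a finer scale as well. Between windows of 10 kb inside the same bin, over 232727 windows, the log2FC rose by 0.0197 per percent GC, against 0.0231 between bins. Within bins the slope of log2 CPM itself was 0.0438 and 0.0413 in Keniry2022 and 0.0256 and 0.0200 in Mulas2019. Again both Keniry2022 libraries lay above both Mulas2019 libraries.

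Once the curve was subtracted, limma called 0 bins, while 194 lay under 0.05 before adjustment. With the line as a block, paired by the exchanged labels, 164 bins passed after the correction (6.86%), among them 5 of the 12 named bins. The 12 named bins then had log2FC between -0.10 and 0.08. Pairs of libraries show how much was left. The SD over bins of the log2 difference was 0.034 between the Keniry2022 libraries and 0.051 between the Mulas2019 libraries, against 0.074 to 0.106 between the protocols. After the correction these were 0.033, 0.045 and 0.027 to 0.054, so that the range across protocols took in both pairs within one. Counting alone gives 0.018 to 0.019.

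**Figure D3:**
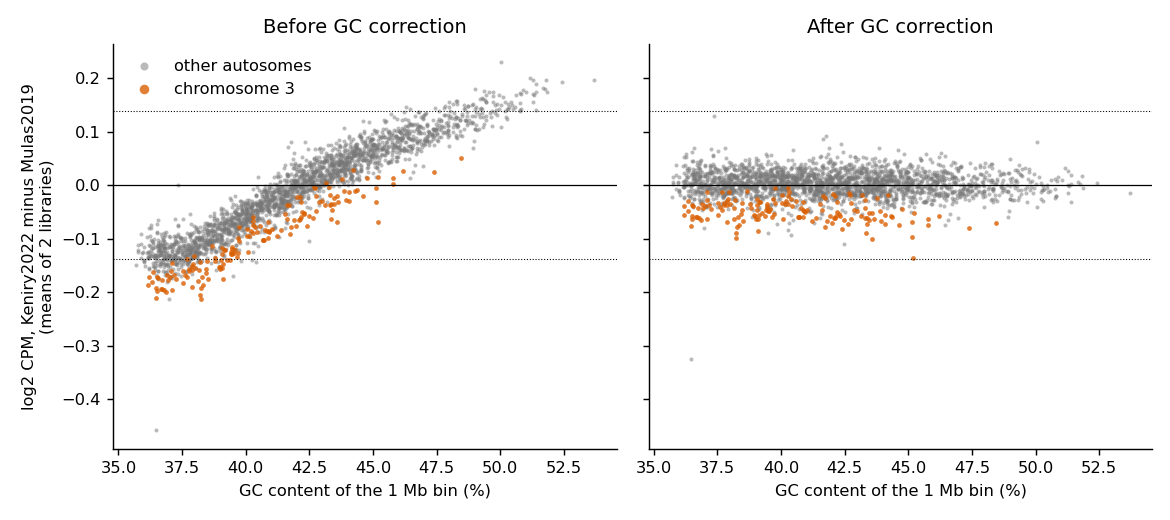
Difference in mean log2 CPM between the 2 Keniry2022 and the 2 Mulas2019 libraries at p20 against the GC content (%) of the bin, before and after the GC correction; each point is 1 of 2391 bins, chromosome 3 is in orange, and dotted lines mark a fold of 1.1. The difference rises with GC content before the correction (r 0.95) and is centred on 0 after it (the lone point far below is the chromosome 2 bin, at -0.46 before and -0.32 after), where chromosome 3 lies below the other autosomes.

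Gene content followed GC content. In the 267 bins without a protein-coding gene the median log2FC was -0.12, with 219 lower and 7 higher, while in the 279 bins with 20 or more it was 0.07, with 155 higher and 36 lower. GC content and gene number are linked, so bins were also compared within quintiles of GC content. In quintile 1, of the lowest GC content, the 208 bins without a gene and the 20 bins with 10 or more genes had medians of -0.13 and -0.12. In quintile 3, 9 bins without a gene had 0.0023 and 113 bins with 10 or more genes had -0.02. Quintile 2 had -0.07 (39 bins) and -0.09 (60 bins), and quintile 4 had 0.06 (11 bins) and 0.03 (188 bins). Of these 4 quintiles, bins rich in genes were higher than bins without a gene in quintile 1 alone, and no test was made. Quintile 5 held 0 bins without a gene.

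Position on the chromosome was also described. Mouse autosomes have the centromere at one end, which opens each chromosome in the assembly. The first 5 tested bins of the autosomes had a median log2FC of -0.02, close to the -0.01 over all bins, with 18 higher and 32 lower of 95. The last 5, towards the telomere, had a median of 0.05 and a higher GC content, 43.9% against 41.4%, with 49 higher and 28 lower of 95. After the GC correction the medians were 0.0028 and 0.00073.

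Neighbouring bins called in 1 direction formed 451 runs, of which 101 held 5 or more bins. These 101 runs took in 810 of the 1450 called bins. The longest run of lower bins was chr16:46000001-78000000, with 32 bins, a mean GC content of 38.2%, 105 protein-coding genes and a median log2FC of -0.10. The longest run of higher bins was chr7:125000001-145441459, with 21 bins, a mean GC content of 46.5%, 343 protein-coding genes and a median log2FC of 0.09. The correlation of the log2FC of neighbouring bins was 0.75 before and 0.39 after the GC correction.

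Whole autosomes were compared next, since karyotype was the question of the study. A chromosome's shift was the median log2 CPM of its bins minus the median of all autosomal bins, tested with limma over 19 autosomes, and 9 of 19 (47.4%) differed. Chromosomes 5, 7, 8, 9, 11, 12, 17 and 19 were higher in Keniry2022 and chromosome 16 was lower. The largest shift was that of chromosome 11, a GC-rich chromosome of which extra copies are known in mESC cultures. Its median bin lay 0.22 and 0.24 above the genome in Keniry2022 and 0.18 and 0.16 above it in Mulas2019 (difference 0.07, SE 0.012, limma adjusted p 0.0153).

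The other shifts were smaller. Chromosome 8, also often gained in mESC cultures, lay at 0.04 and 0.05 in Keniry2022 and at 0.01 and -0.01 in Mulas2019 (difference 0.05, SE 0.011, limma adjusted p 0.0194). Chromosome 16, whose median bin has a GC content of 40.4%, lay at -0.14 and -0.13 against -0.10 and -0.09 (difference -0.04, limma adjusted p 0.0194). Chromosomes 5, 7, 9, 12, 17 and 19 had differences of 0.03 to 0.06. On each of these 9 chromosomes both libraries of one protocol lay beyond both of the other. Chromosome 1, of which gains are also known, differed by 0.00065 (limma adjusted p 0.943).

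The calls for whole autosomes depended on the setting. With the line as a block, paired by the exchanged labels, the same 9 autosomes passed. After the GC correction 0 of 19 passed, with 1 at an unadjusted p under 0.05, and chromosomes 5, 11, 17 and 19 then had differences below 0 and chromosome 16 one above 0. In each of the 4 refits without 1 library 0 passed, although the 9 differences kept their direction. With the share of autosomal reads per chromosome in place of the median bin 0 passed, with 2 at an unadjusted p under 0.05.

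Chromosome 3 stood apart from the other autosomes in every library. It held 6.74% and 6.32% of autosomal reads in Keniry2022 and 6.56% and 7.32% in Mulas2019, with binomial 95% confidence intervals (Wilson) of 6.73% to 6.75% and 6.32% to 6.33%, and 6.55% to 6.57% and 7.31% to 7.33%. After the GC correction its median bin lay 0.18 and 0.09 above the autosomal median in Keniry2022 and 0.11 and 0.27 above it in Mulas2019. The other 18 autosomes lay between -0.03 and 0.04 in all 4 libraries. The excess of chromosome 3 was thus 13.2% and 6.26% in Keniry2022 and 7.92% and 20.6% in Mulas2019. In DNA from whole cultures, more cells with an extra copy and more copies per cell cannot be told apart.

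Whether the excess was lower in Keniry2022 depended on how libraries were matched. The groups overlapped, and the shift of -0.06 did not pass (SE 0.057, limma adjusted p 0.442), nor did that of -0.06 after the GC correction (limma adjusted p 0.848). With the p20 Keniry2022 labels exchanged, as the Y reads order them, Keniry2022 minus Mulas2019 was -0.09 in the line with Y reads and -0.02 in the other. With the labels as given it was 0.07 and -0.18. Without Mulas2019 replicate 2, whose excess was the highest, the shift before correction was 0.0215. Of the 157 bins of chromosome 3, 25 were lower and 0 were higher in Keniry2022 before the correction.

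GC-corrected values were positive along the whole of chromosome 3 and higher at its distal end in all 4 libraries. No library from before the split was used, so whether this rise along the chromosome is a gain was not tested. Cut into 5 consecutive parts, the median GC-corrected value was 0.15 in the first part and 0.21 in the last in Keniry2022 labelled replicate 1, and 0.04 and 0.11 in labelled replicate 2. In Mulas2019 these values were 0.06 and 0.15 in replicate 1 and 0.22 and 0.28 in replicate 2. The median GC-corrected difference between protocols was -0.04 to -0.06 in every part. When the GC correction was joined with the exchanged labels as a fixed block, the 164 bins that passed were 113 lower (4.73%) and 51 higher (2.13%) in Keniry2022. Of these 85 were on chromosome 3, all of them lower. Bins of 1 chromosome share its shift and are not independent. In this fit the shift of chromosome 3 as a whole did not pass (limma adjusted p 0.501). Chromosome 3 holds Sox2, Nras and Rps3a1, which are therefore named with this limit below.

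**Figure D4:**
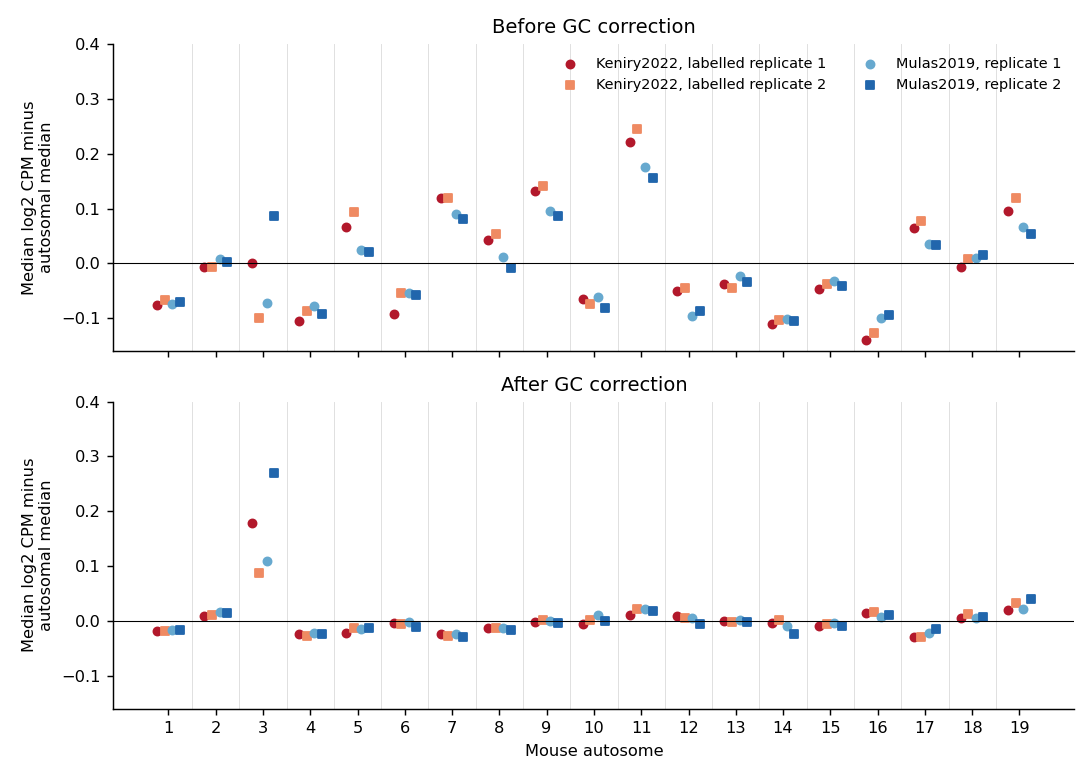
Median log2 CPM of the bins of each autosome minus the median of all autosomal bins in the 4 p20 libraries, before and after the GC correction; each point is 1 library. After the correction chromosome 3 lies at 0.18, 0.09, 0.11 and 0.27 and the other autosomes lie between -0.03 and 0.04.

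Genes were placed in the bin that holds their midpoint, and each group is given by its distinct bins beside the 25.6% higher and 35.0% lower over all bins. A value is the DNA dose of the bin around a gene, not its expression. Naive pluripotency genes, which keep mESCs undifferentiated, lay in 18 tested bins for 19 of the 20 listed. Of these bins 10 were higher and 1 was lower in Keniry2022, with a median log2FC of 0.06 against -0.01 over all bins, at a median GC content of 45.1% against 41.7%. Fgf4, a growth factor gene of mESCs, had the largest value, with 611 and 608 CPM in Keniry2022 and 559 and 536 CPM in Mulas2019 (log2FC 0.15, SE 0.024, limma adjusted p 0.00627). Sall4, a zinc-finger regulator, followed with 584 and 575 CPM against 539 and 515 CPM (log2FC 0.14).

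At the core factors the differences were smaller. The bin of Pou5f1, the gene of the factor Oct4, had 532 and 532 CPM in Keniry2022 and 496 and 486 CPM in Mulas2019 (log2FC 0.12). Zfp42, a marker of the naive state, was in the lower bin, with 336 and 339 CPM against 350 and 354 CPM (log2FC -0.06). Nanog and Dppa3 share a bin with 432 and 432 CPM against 439 and 443 CPM (log2FC -0.03, limma adjusted p 0.108). Sox2 had 563 and 538 CPM against 524 and 592 CPM, with groups that overlap. After the GC correction the group's median was -0.0076, beside 0.0015 over all bins.

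Growth-control genes, among them cyclins, their inhibitors and oncogenes, lay in 21 bins, of which 12 were higher and 2 lower (median log2FC 0.07). Ccnd1, the cyclin D1 gene, shares the bin of Fgf4. Birc5, which encodes the mitotic protein survivin, had 602 and 588 CPM in Keniry2022 and 544 and 531 CPM in Mulas2019 (log2FC 0.15). The lower bins were those of Cdkn2a, a cell cycle inhibitor, with 345 and 339 CPM against 355 and 359 CPM (log2FC -0.06), and of Myc, with 388 and 386 CPM against 403 and 402 CPM (log2FC -0.05). Nras, on chromosome 3, had 580 and 541 CPM against 557 and 616 CPM, where the groups overlap. The bin of Trp53, the p53 gene, had 568 and 574 CPM against 554 and 526 CPM (log2FC 0.08, limma adjusted p 0.0447).

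Imprinted loci, expressed from 1 parental allele, lay in 16 bins, of which 7 were higher and 2 lower (median log2FC 0.05). Kcnq1 had 564 and 554 CPM in Keniry2022 and 527 and 503 CPM in Mulas2019 (log2FC 0.12), and Igf2r had 533 and 530 CPM against 500 and 491 CPM (log2FC 0.10). The lower bins were those of Snrpn, with 216 and 221 CPM against 240 and 238 CPM (log2FC -0.13), and Peg10, with 386 and 384 CPM against 402 and 403 CPM (log2FC -0.06). The bin of Igf2 and H19 was higher (log2FC 0.09).

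These group counts fell in refits without 1 Keniry2022 library, as did those over all bins. Because such refits leave 1 library in that group, the fall cannot show whether the differences rested on either library. Without the library labelled Keniry2022 replicate 1, 0 naive pluripotency bins, 1 growth-control bin and 0 imprinted bins were higher, and without labelled replicate 2 these counts were also 0, 1 and 0. Over all bins 11 and 37 of 2391 were higher in these refits, so that few bins of any kind passed as higher. In each of these refits 1 imprinted bin was lower, and 0 bins of the other groups were.

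Ribosomal protein genes were in 74 bins, of which 44 were higher and 7 lower (median log2FC 0.08, GC content 46.2%). Rps15 lay in the named bin of chromosome 10 (log2FC 0.20) and Rpl22 had 599 and 581 CPM in Keniry2022 and 536 and 513 CPM in Mulas2019 (log2FC 0.17). At the other end Rps3a1, on chromosome 3, had 477 and 440 CPM against 470 and 531 CPM, and Rpl10l had 278 and 277 CPM against 295 and 304 CPM (log2FC -0.11). Mitochondrial ribosomal protein genes were in 74 bins, with 44 higher and 4 lower (median log2FC 0.07), from Mrps30 at -0.14 and Mrpl32 at -0.09 to Mrpl54 at 0.17 and Mrpl12 at 0.17. Without the library labelled Keniry2022 replicate 1 the higher bins numbered 0 and 0 in these groups, and without labelled replicate 2 they numbered 3 and 1.

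Among bins of sensory receptor genes, more were lower than higher, as was so over all bins (35.0% lower and 25.6% higher). Olfactory receptor genes, the largest gene family of the mouse, were in 82 bins, with 35 lower and 16 higher (median log2FC -0.03), and vomeronasal receptor genes in 47 bins, with 25 lower and 5 higher (median -0.07). The extremes were Olfr266 on chromosome 3 at -0.18 and the pair Olfr129 and Olfr130 at -0.14, against Olfr222 and Olfr223 at 0.13. Vmn2r79 lay in the named bin of chromosome 7 at -0.18 and Vmn2r98 at -0.15, against Vmn1r183 at 0.11 and Vmn1r1 at 0.10. Receptor and zinc-finger genes occur in near-identical copies, between which reads may be split. Without the library labelled Keniry2022 replicate 1 the lower bins numbered 10 of 82 and 14 of 47, beside 321 of 2391 over all bins, and without labelled replicate 2 they numbered 23 and 19, beside 560 of 2391.

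Zinc-finger genes of the Zfp series lay in 182 bins, with 87 higher and 27 lower (median log2FC 0.04), from Zfp804a at -0.16 and the pair Zfp987 and Zfp600 at -0.14 to Zfp433 and Zfp781 at 0.17. Without the library labelled Keniry2022 replicate 1, 1 was higher and 9 were lower, and without labelled replicate 2 these were 2 and 16. The Hox clusters, which pattern the body axis, were in 5 bins, with 2 higher and 0 lower (median 0.03). Replication-dependent histone genes were in 6 bins, with 3 lower and 2 higher (median -0.07), where Hist1h2bl had -0.07 and Hist3h2a 0.08. Without either Keniry2022 library 0 Hox bins and 0 histone bins were higher.

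Very long genes, over 1 Mb, had the lowest median of all groups. Their 55 bins, 1 for each gene, held 35 lower and 6 higher, with a median log2FC of -0.09 at a median GC content of 38.9%. Naaladl2, on chromosome 3, had 287 and 274 CPM in Keniry2022 and 300 and 344 CPM in Mulas2019 (log2FC -0.19). Sgcz, a gene of the muscle sarcoglycan complex, had 239 and 252 CPM against 273 and 280 CPM (log2FC -0.17). At the other end were Gm20388 at 0.17 and the cadherin gene Cdh13 at 0.12, with 522 and 519 CPM against 482 and 475 CPM. Without the library labelled Keniry2022 replicate 1, 20 were lower and 0 higher, and without labelled replicate 2, 29 and 1. After the GC correction the median was 0.0055.

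In each of these 11 gene groups 0 bins passed the minimum fold of 1.1. After the GC correction 0 bins passed the limma test of any difference without a block. With the line as a block, paired by the exchanged labels, some passed, among them bins of zinc-finger and histone genes. The group medians after the GC correction lay between -0.03 and 0.0055, where the histone genes, with a bin on chromosome 3, were the lowest.

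**Figure D5:**
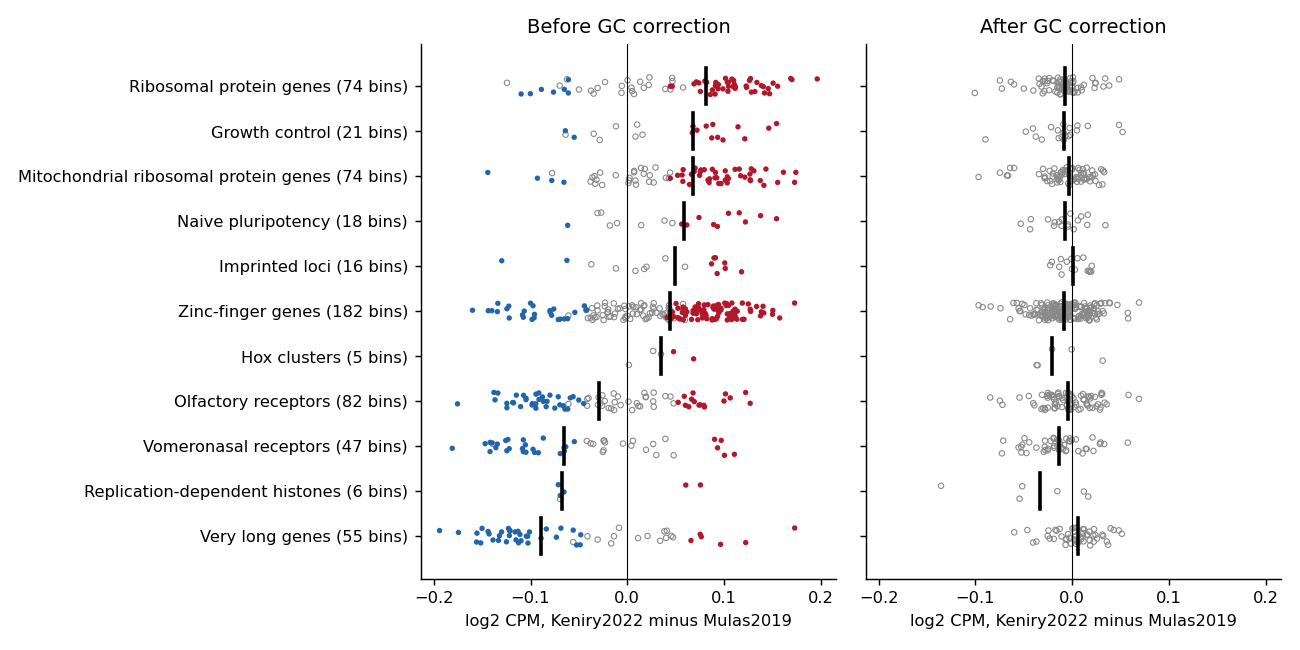
Difference in log2 CPM between Keniry2022 and Mulas2019 at p20 for the distinct bins of each gene group, before and after the GC correction; filled points passed the limma test (red higher, blue lower), open points did not, points are spread vertically only for display, and black bars are medians. Ribosomal protein genes have the highest median (0.08) and very long genes the lowest (-0.09) before the correction. No bin is filled after the correction, in the fit without a block.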

How the data were processed

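The 10 libraries were low-coverage DNA sequencing. The submitters' processing notes name bcl2fastq, Bowtie2 and mm10, without versions. The authors deposited 1 log2 value for each library and window of 10 kb (272566 windows, the last of a chromosome shorter). Undoing the log2 gave whole reads times 1 factor for each library (100.0% of values within 0.1 reads), where empty windows had been given 0.9 reads. The last windows ended at the GRCm38 lengths of 21 of 21 chromosomes. Reads were summed in bins of 1 Mb, scaled to the autosomal total, and bins under 0.1 of the median bin were removed. Because the deposited unit is log2, limma (3.58.1, R 4.3.3) with a trended prior was run on log2 CPM of the 4 p20 libraries, without p0 and without a block, and TREAT used a minimum fold of 1.1. The methods print that minimum as a log2 value, which was an alternative. The GC correction subtracted a loess curve (span 0.3) from each library. Genes came from GENCODE release M21. The limma step was tested on simulated data. Intervals of read shares leave out all error other than counting, because no molecular identifiers are named that would separate PCR duplicates.

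The methods make replicates separate lines. The pairing was checked by correlating replicate 1 minus replicate 2 of both protocols over bins after the GC correction, which gave -0.69, and -0.06 without chromosome 3, so that the labelled numbers were not used as a pairing. Named bins were the 6 largest and 6 smallest log2FC that passed with groups apart, at most 2 per chromosome and direction, with up to 2 of the longest genes inside. In gene groups the 2 largest and 2 smallest members were named, beside further members chosen after their values were seen. The members and lists were chosen with earlier results of these data known. Summaries and figures used Python 3.11.15 (pandas 2.3.3).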

Additional observations from a re-analysis of the deposited data

How the results depend on the processing

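The 60.6% of bins that differed stayed at 49.9% to 72.3% with voom, other filters, a pseudocount, other bin sizes, no high-count windows, no chromosome 3, 8 libraries sharing the spread, median centring and both replicate blocks. Leaving out 1 library gave 13.9% to 65.2%, and the lone library of a group was then assumed to vary like the others. With the GC correction 0 bins passed, also with the labelled replicate block, in refits without 1 library (0 to 0) and with 8 libraries. With the GC correction and the crossed replicate block 6.86% passed, 2.82% without chromosome 3, and the GC correction without chromosome 3 gave 0.761%, for causes that were not tested.

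Bins beyond the minimum fold numbered 0 in all 27 alternatives run. The 9 autosome calls became 0 with the GC correction (also with either replicate block or 8 libraries), with the labelled replicate block, with the share of reads, with the mean of bins and in the refits without 1 library (0 to 0, also after the GC correction). They were 9 with the crossed block and 6 to 9 under the other filters. Directions turned after the GC correction, with or without a replicate block, for the chromosome 10 bin from 80000001 (-0.014) and chromosomes 5 (-0.0028), 11 (-0.0040), 16 (0.0058), 17 (-0.011) and 19 (-0.0038). The chromosome 3 shift ranged from -0.14 to 0.022 without 1 library. The difference in GC slope stayed at 0.0199 to 0.0262. The GC correction joined to the left-out libraries, to 8 libraries or to leaving out chromosome 3, and the mean of bins, were added after seeing the data. The planned count-model tests and TMM factors were not run, although whole reads were recovered and voom was run on them. Depth leaves a counting error of up to 0.909% in the median bin.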

Other observations

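After the GC correction and with the crossed replicate block, 79 bins off chromosome 3 passed, 28 lower and 51 higher in Keniry2022. Among the higher was the named bin of Tpcn2 and Mrgprd at the end of chromosome 7 (0.08). Among the lower were the bin of Zfp987 and Zfp600 on chromosome 4 (-0.09), the named Skint5 bin (-0.08) and the histone bin of Hist1h2bl (-0.05). These examples were picked after their values were seen.

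The 7 windows of 10 kb with more than 10 times the median count did not move together. Beside the window on chromosome 2 they lay on chromosomes 9, 11, 14, 15 and 17. The window chr9:35300001-35310000 held 0.0147% and 0.0113% of autosomal reads in Keniry2022 and 0.0168% and 0.0179% in Mulas2019, and chr14:19410001-19420000 held 0.00585% and 0.00435% against 0.00732% and 0.00699%. The window chr17:39840001-39850000 held 0.0207% and 0.0218% against 0.0199% and 0.0189%, so it was higher in Keniry2022. Of the neighbouring windows on chromosome 11, chr11:3180001-3190000 held 0.0110% and 0.0112% against 0.0112% and 0.0108%, where the groups overlap, and chr11:3190001-3200000 held 0.0194% and 0.0188% against 0.0197% and 0.0195%. The window chr15:75080001-75090000 held 0.00488% and 0.00516% against 0.00471% and 0.00487%. No test was made.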
